A study of Homo sapiens with 18 samples.

Results

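The comparison described here set chromatin carrying serine 2 phosphorylation (Ser2P) of RNA polymerase II (Pol II) against chromatin carrying tyrosine 1 phosphorylation (Tyr1P), in cells treated with auxin. Its members were 4 of the 18 libraries of the series, Ser2P IAA replicates 1 and 2 and Tyr1P IAA replicates 1 and 2, taken from the sample titles. All were chromatin immunoprecipitation sequencing (ChIP-seq) libraries from HCT116, a human colon carcinoma cell line, with INTS11 fused to an auxin-inducible degron (INTS11-AID). INTS11 is the endonuclease of Integrator, a complex that cleaves nascent Pol II transcripts, and IAA is the auxin that directs the tagged protein to degradation. The labels give 1 treatment text for every sample, with 14 h without serum and 500 µM IAA for 1 h, and it also names EGF, a growth factor that induces immediate early genes, and IFN-beta, an interferon. It does not say which of these agents a given library received, and the titles of the 4 libraries name IAA alone. The Control libraries of both marks, used below as background, came from the same tagged line without the IAA label. The marks were precipitated with antibodies of different makers, so a difference between marks and one between antibodies cannot be told apart. Nothing in the labels says that replicates came from separate cultures, so p-values measure only the spread between these libraries. The degron acts on the protein, and the peak lists hold no check of INTS11 loss.

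The C-terminal domain of the largest Pol II subunit consists of heptad repeats whose residues are phosphorylated and dephosphorylated as transcription proceeds. Ser2P is placed by CDK9, CDK12 and CDK13, builds up as Pol II moves into the gene body and past the polyadenylation site, and is bound by elongation and 3′ end processing factors. Tyr1P is placed by ABL kinases and, in mammalian cells, is known mainly from promoters and enhancers.

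Peaks overlapping either input list were dropped, and the peaks of the 4 lists were merged into 130213 sites wherever they shared at least 1 bp. A site had both marks where all 4 lists had a peak, and 1 mark only where both lists of that mark and neither of the other had one. This gave 17299 sites with both marks (13.3% of all sites), 45587 with Ser2P only (35.0%) and 5738 with Tyr1P only (4.41%). The other 61589 sites (47.3%) were not reproduced and entered no class. Without Ser2P IAA replicate 2 the Ser2P-only count was 76817, and without Tyr1P IAA replicate 1 or 2 the Tyr1P-only count was 8766 or 10441, since a site then needed 1 list of that mark and not 2.

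The promoters of the strongest sites are shown as examples of starts with both marks and with Tyr1P only. The 250 bases before the start nearest to the site are given from RefSeq on GRCh38.p14, 5′ to 3′ on the gene's strand. Capitals mark matches, on either strand, to the GC box (letters GGGCGG), the CCAAT box (letters CCAAT), the TATA box (letters TATAAA) or the E-box (letters CACGTG). The first 3 genes had both marks at the start. THOC3 is a subunit of the THO mRNA export complex (chr5:175968316-175968565, minus strand), CYB5R4 a cytochrome b5 reductase (chr6:83859439-83859688, plus strand) and SHQ1 an assembly factor of H/ACA ribonucleoproteins (chr3:72848446-72848695, minus strand).
THOC3: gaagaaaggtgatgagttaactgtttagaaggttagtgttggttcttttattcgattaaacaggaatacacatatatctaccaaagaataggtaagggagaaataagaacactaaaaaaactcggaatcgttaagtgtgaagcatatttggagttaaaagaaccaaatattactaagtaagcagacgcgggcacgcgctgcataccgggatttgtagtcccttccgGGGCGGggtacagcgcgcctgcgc
CYB5R4: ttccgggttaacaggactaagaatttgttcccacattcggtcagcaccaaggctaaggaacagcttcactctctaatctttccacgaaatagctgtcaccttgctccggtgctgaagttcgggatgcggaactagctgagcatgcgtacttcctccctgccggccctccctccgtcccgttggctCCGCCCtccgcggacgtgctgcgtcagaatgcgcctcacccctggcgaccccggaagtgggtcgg
SHQ1: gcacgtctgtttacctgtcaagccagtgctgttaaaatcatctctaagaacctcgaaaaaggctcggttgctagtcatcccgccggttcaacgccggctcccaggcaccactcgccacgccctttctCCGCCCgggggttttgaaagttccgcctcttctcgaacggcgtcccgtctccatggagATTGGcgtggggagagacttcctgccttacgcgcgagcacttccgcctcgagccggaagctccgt
The next 3 genes had Tyr1P only at the start. CDC23 is a subunit of the anaphase-promoting complex (chr5:138213324-138213573, minus strand), ABCB1 a drug efflux pump, here at an alternative start (chr7:87600885-87601134, minus strand), and CDKAL1 a tRNA-modifying enzyme (chr6:20534207-20534456, plus strand).
CDC23: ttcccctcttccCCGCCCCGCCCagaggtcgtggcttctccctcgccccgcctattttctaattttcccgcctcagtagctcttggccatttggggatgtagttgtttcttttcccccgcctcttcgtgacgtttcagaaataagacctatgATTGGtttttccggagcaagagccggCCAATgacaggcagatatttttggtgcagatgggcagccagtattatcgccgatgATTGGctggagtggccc
ABCB1: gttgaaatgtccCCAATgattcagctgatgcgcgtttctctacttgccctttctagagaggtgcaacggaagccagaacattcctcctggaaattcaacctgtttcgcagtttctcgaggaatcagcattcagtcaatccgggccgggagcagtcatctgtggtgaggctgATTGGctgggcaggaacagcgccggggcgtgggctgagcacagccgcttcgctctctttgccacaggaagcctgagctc
CDKAL1: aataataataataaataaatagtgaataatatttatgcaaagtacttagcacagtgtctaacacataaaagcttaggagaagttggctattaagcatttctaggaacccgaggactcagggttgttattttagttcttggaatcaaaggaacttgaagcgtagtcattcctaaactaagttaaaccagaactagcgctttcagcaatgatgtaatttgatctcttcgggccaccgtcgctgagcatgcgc
The 3 promoters with both marks each held 1 GC box, and SHQ1 a CCAAT box as well. CDC23 held 2 overlapping GC boxes and 3 CCAAT matches, ABCB1 held 2 CCAAT matches, and CDKAL1 matched none of the 4 motifs. Their G+C content was 42.4%, 59.2% and 59.6% for THOC3, CYB5R4 and SHQ1, and 54.0%, 55.6% and 37.2% for CDC23, ABCB1 and CDKAL1. These 6 promoters did not separate by class in G+C content or in GC boxes.

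Over all 22132 listed starts of protein-coding genes, the 250 bases before the start had a median G+C content of 62.0%. Starts with a both-marks site within 1 kb (12320) had a median of 66.4% and 22 CpG dinucleotides. Starts with Tyr1P only (315) had a median of 48.8% and 5 CpG, close to the starts with no site (7608), at 50.8% and 4 CpG. The GC box was in 72.6% of starts with both marks, 24.4% with Tyr1P only, 49.7% with Ser2P only, 26.1% with no site and 53.7% of all starts. TATAAA was in 4.25% of starts with both marks and 15.6% with Tyr1P only, against 9.0% of all starts and 16.5% of those with no site. CCAAT was in 33.3%, 43.2% and 25.9% of starts with both marks, Tyr1P only and Ser2P only, against 32.7% of all. CACGTG was in 9.07%, 4.13% and 7.36%, against 7.37% of all. These are matches to letters and do not show that a factor was bound. Tyr1P-only starts thus lay nearer to starts without a site than to starts with both marks in G+C, CpG, GC box and TATAAA. No test was made, since starts share libraries and neighbouring sequence.

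The 4 lists differed first in size. Ser2P IAA replicates 1 and 2 had 99001 and 88503 peaks, and Tyr1P IAA replicates 1 and 2 had 32690 and 30127. The means were 93752 ± 7423 (SD, n = 2) for Ser2P and 31409 ± 1812 (SD, n = 2) for Tyr1P, a ratio of 2.98 (two-sided exact permutation p = 0.333). With 2 libraries against 2 this is the smallest p the test can give, so none of the comparisons of marks can pass 0.05. The Ser2P libraries were also deeper by the estimate from the lists, with 9.34 and 10.5 fragments per kb of background against 7.44 and 7.02, and the part of depth in the difference was not tested. Ser2P peaks covered 43.8 and 43.9 Mb, and Tyr1P peaks 17.4 and 16.7 Mb. In Control the order of the marks was the reverse, with 37013 and 15270 Ser2P peaks and 38485 and 37472 Tyr1P peaks. Ser2P Control replicate 2 stood apart in depth, at 3.28 fragments per kb against 13.6 in replicate 1, and results that use it are given for both replicates. Of the 117230 sites with any Ser2P peak 56.3% were in both Ser2P lists, and of the 35198 with any Tyr1P peak 68.3% were in both Tyr1P lists.

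In the full lists, Tyr1P lay mostly at gene starts and outside protein-coding genes, and Ser2P in gene interiors. A start is here within 1 kb of a listed start of a protein-coding gene, and an interior lies more than 1 kb from both ends. By peak summit, 33.9% and 36.4% of Tyr1P peaks lay at a start against 12.2% and 13.2% of Ser2P peaks. The means were 35.1% ± 1.77 and 12.7% ± 0.688 (SD, n = 2 each; exact permutation p = 0.333). Interiors held 53.3% and 51.6% of Ser2P peaks against 21.4% and 20.1% of Tyr1P peaks, with means of 52.4% ± 1.14 and 20.7% ± 0.904 (SD, n = 2 each; exact permutation p = 0.333). In neither measure did the libraries of the marks overlap. Both differences were smaller in lists of equal length. With each list held to its 30127 peaks of highest −log10 p, starts held 32.3% ± 0.230 of Ser2P and 36.3% ± 0.115 of Tyr1P peaks, and interiors 28.8% ± 0.425 and 20.1% ± 0.0493 (SD, n = 2 each). The directions held, with a difference of -4.06 in place of -22.5 percentage points at starts and of 8.74 in place of 31.7 in interiors. In these shorter lists Ser2P, too, had more peaks at starts than in interiors.

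**Figure D1:**
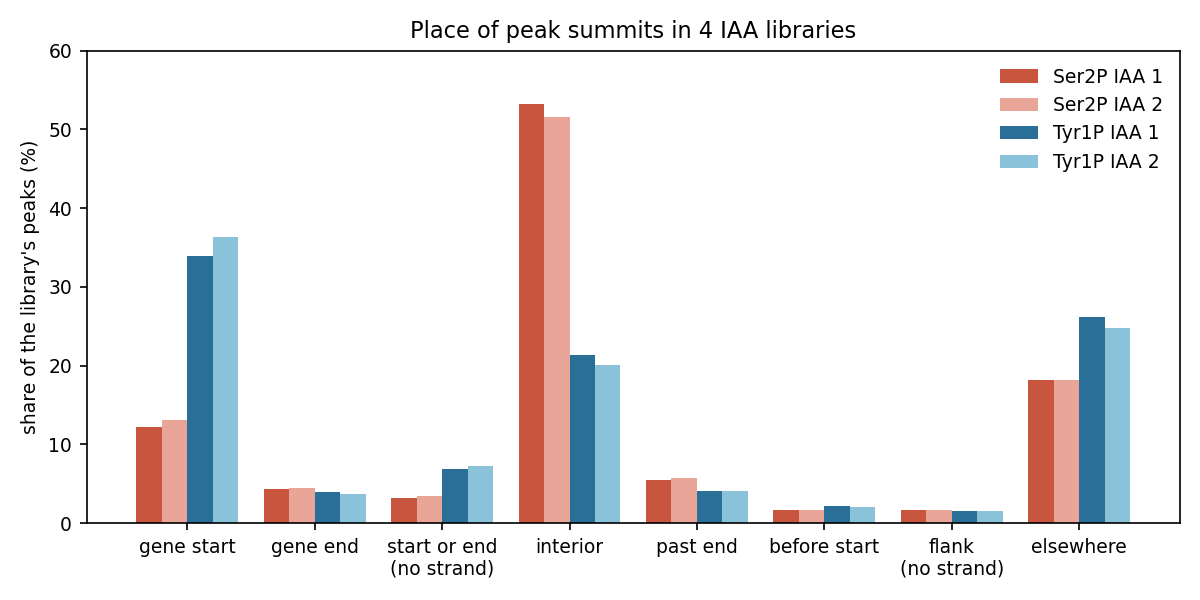
Share of each library's peaks (vertical axis, percent) by place of the summit relative to protein-coding genes, with 1 bar for each of the 4 IAA libraries. Tyr1P bars stand at 33.9% and 36.4% at gene starts and Ser2P bars at 53.3% and 51.6% in interiors.

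Most Tyr1P peaks met a Ser2P peak, while most Ser2P peaks met no Tyr1P peak. On average over the 2 lists of the other mark, 65.3% and 68.3% of Tyr1P peaks and 20.4% and 22.8% of Ser2P peaks shared at least 1 bp with it. The means were 66.8% ± 2.09 and 21.6% ± 1.66 (SD, n = 2 each; exact permutation p = 0.333). In lists of equal length the shares were 57.2% ± 0.293 for Tyr1P and 54.2% ± 0.399 for Ser2P (SD, n = 2 each), so the gap of -45.2 percentage points became -3.07. The count of Ser2P-only sites then fell from 45587 to 8346, while both-marks sites numbered 14462 and Tyr1P-only sites 7800.

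The 3 classes stood at different places. Of the sites with both marks, 53.7% had their centre at a gene start (95% exact interval 53 to 54.5), 13.4% in an interior and 13.6% elsewhere. Elsewhere means outside protein-coding genes and more than 5 kb from one. A further 10.2% lay at an end of a gene whose strand is not in the table, so that start and end could not be told apart. Of the Ser2P-only sites, 60.6% were interior (60.2 to 61.1), 5.12% at a gene end, 7.01% up to 5 kb past an end and 2.78% at a start. Of the Tyr1P-only sites, 51.4% were elsewhere (50.1 to 52.7), 29.2% interior and 6.90% at a start. These intervals cover counting error only. The 61589 sites that were not reproduced lay in similar places to the Ser2P-only sites, with 62.5% interior, 22.6% elsewhere and 2.65% at a start. At the sites that were not reproduced, the Ser2P IAA lists had 33554 and 24223 peaks and the Tyr1P IAA lists 7885 and 5378. Most peaks there were thus Ser2P, so these sites cannot show whether a high interior share was particular to Ser2P. Among the 3 classes the interior share was highest for Ser2P only. With lists of equal length the leading place of each class was the same, at 60.1% for both marks at starts, 46.3% for Ser2P only in interiors and 47.6% for Tyr1P only elsewhere. In Control the Ser2P-only class held 1362 sites, of which 31.9% were interior, 17.7% at an end and 23.2% past an end. The Control Tyr1P-only class held 12102 sites, 48.5% of them elsewhere.

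Along genes, the classes were counted over 2077 protein-coding genes of at least 20 kb that had both marks at the start and no other protein-coding gene within 10 kb. In the first kb after the start there were 64.6 both-marks sites per 100 genes, and in the kb before it 25.9. The genes were chosen for a both-marks site at a start, so the rise of that class there follows from the choice. Ser2P-only sites were dense past the gene end, a place that did not enter the choice. Their count per 100 genes was 3.66 in the last kb of the gene, 13.5 in the first kb past the end, 18.6 in the second, 14.8 in the third, 11.8 in the fourth and 8.67 in the fifth, and then 5.15 in the sixth. Both-marks sites had a lower rise at the same place, to 3.18 in the second kb past the end, and Tyr1P-only sites reached 0.530. With the gene body cut into 10 equal parts, the first held 7.78% of its Ser2P-only sites, the second 9.15% and the last 12.9%. The first part takes in positions near the start where these sites were sparse, as described below. Both-marks sites inside the gene went the other way, at 25.1% in the first part and 6.28% in the last. In Control, the same genes had 3.32 Ser2P-only sites per 100 genes in the second kb past the end, the highest of any kb there as well.

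**Figure D2:**
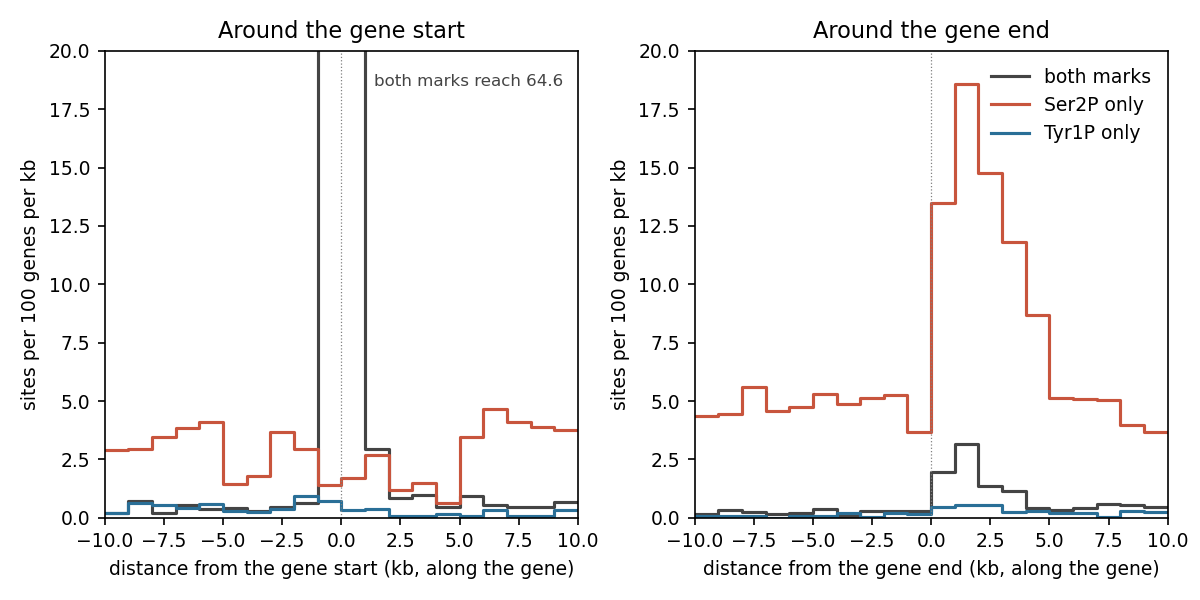
Sites per 100 genes per kb (vertical axis) by distance from the gene start (left) and gene end (right) in kb along the gene, for the 3 site classes over 2077 genes after IAA. Ser2P-only sites reach 18.6 in the second kb past the end, and the both-marks curve at the start leaves the axis at 64.6. The genes were chosen for both marks at the start, so the rise of that curve there follows from the choice.

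Inside the gene, Ser2P-only sites were sparse from 2 to 5 kb past the start and denser beyond. From 1 to 2 kb there were 2.70 per 100 genes, and then 1.20 and 1.49 in the next 2 kb. Between 4 and 5 kb inside the gene there were 0.626 per 100 genes, and between 5 and 6 kb there were 3.47. Before the start the counts were uneven, with 2.94 between 1 and 2 kb, 3.66 between 2 and 3 kb, 1.78 between 3 and 4 kb, 1.44 between 4 and 5 kb and 4.09 between 5 and 6 kb. The local background of the peaks, solved from the deposited fold and p, moved with the step inside the gene. From 2 to 5 kb inside the gene the median background of Ser2P-only peaks was 5.21 and 5.50 times the lowest background of the list in replicates 1 and 2, and 0% of the peaks stood at that lowest value. From 5 to 8 kb inside it was 1.85 and 1.92 times, with 14.5% and 16.7% at the lowest value. The density of these peaks was 1.17 and 1.16 per 100 genes per kb in the nearer stretch and 4.09 and 4.04 in the farther one. Before the start, the background was 6.08 and 5.85 times the lowest value from 5 to 2 kb and 2.94 and 3.02 times from 10 to 5 kb. The densities there were 2.34 and 2.39, and 3.48 and 3.44. The part of the local background in the density of these peaks was not tested.

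At starts with both marks, Tyr1P summits lay farther into the gene than Ser2P summits. This was examined after the summits of the highest-ranked genes had been seen. It was measured at 4837 both-marks sites with 1 peak of each list and a single listed start within 2 kb. The median summit lay 54 and 56 bp past the start for Ser2P IAA replicates 1 and 2, and 79 and 83 bp past it for Tyr1P. The means of the library medians were 55.0 ± 1.41 bp and 81.0 ± 2.83 bp (SD, n = 2 each), a difference of 26.0 bp (exact permutation p = 0.333). Site by site the shift was smaller and uneven, with a median of 14.0 bp and a middle range from -43.5 to 59.0 bp. Both Tyr1P summits lay beyond both Ser2P summits at 1864 sites (38.5%) and before them at 1167 (24.1%). The replicates of a mark differed by a median of 29 bp (Ser2P) and 26 bp (Tyr1P) at a site. Each other library was measured at those of the 4837 sites that exactly 1 of its peaks overlapped, so the sets of sites differ. The Pol II IAA summits lay at 91 and 97 bp, over 3652 and 4053 sites. In Control the medians were 46 and 47 bp for Tyr1P (4697 and 4706 sites) and 40 and 30.5 bp for Ser2P (4304 and 3340 sites). For Control Pol II they were 48 and 49 bp (4463 and 4466 sites). At CYB5R4 the summits lay 32 and 45 bp past the start for Ser2P and 87 and 95 bp for Tyr1P. At SHQ1 they lay at 64 and 70 bp and at 105 and 123 bp, and at THOC3 at 140 and 150 bp and at 155 and 168 bp.

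Peaks were wider where both marks met. In Ser2P replicates 1 and 2 the median width was 712 and 771 bp at sites with both marks and 336 and 360 bp at Ser2P-only sites, 2.12 and 2.14 times as wide. In Tyr1P replicates 1 and 2 it was 619 and 623 bp at sites with both marks and 367 and 362 bp at Tyr1P-only sites, 1.69 and 1.72 times. A wider peak can meet another list more easily, and the part of the overlap rule in this was not tested. The peaks at both-marks sites were also higher, with a median of 81 and 91 stacked fragments at the summit for Ser2P against 26 and 29 at Ser2P-only sites, and 58 and 57 for Tyr1P against 22 and 20 at Tyr1P-only sites. The widest were those at starts, at 806 and 858 bp for Ser2P and 695 and 711 bp for Tyr1P. Ser2P-only peaks had a median of 328 and 349 bp in interiors, 364 and 392.5 bp at gene ends and 348 and 386 bp past an end. Over whole lists the order of the marks depended on list length. The median width was 348 ± 31.1 bp for Ser2P and 461.5 ± 14.8 bp for Tyr1P (SD, n = 2 each; exact permutation p = 0.333). With lists of equal length it turned, at 625 ± 43.8 bp for Ser2P and 475.5 ± 4.95 bp for Tyr1P (SD, n = 2 each).

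**Figure D3:**
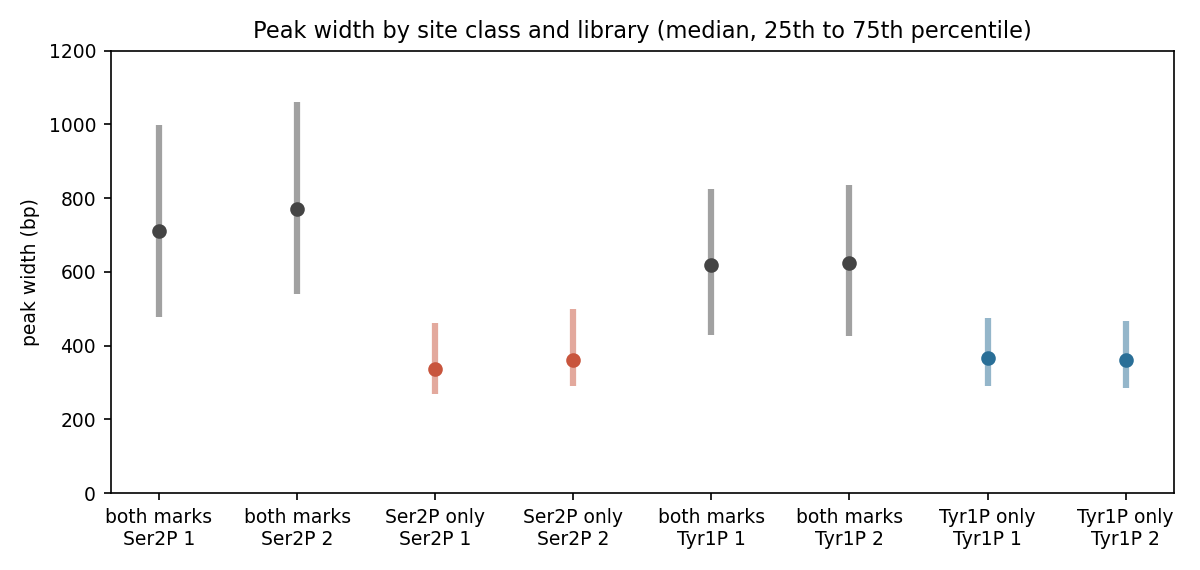
Peak width in bp (vertical axis) by site class and library, where points are medians and bars run from the 25th to the 75th percentile of peaks. Peaks at sites with both marks have medians from 619 to 771 bp and those at sites with 1 mark from 336 to 367 bp.

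At the edge of the class rule, few sites were near misses. Of the Ser2P-only sites, 437 (0.959%) lay within 100 bp of a Tyr1P peak and 4822 (10.6%) within 1 kb, and the median gap was 10459 bp. Of the Tyr1P-only sites, 168 (2.93%) lay within 100 bp of a Ser2P peak and 1342 (23.4%) within 1 kb, with a median gap of 7848 bp. Among both-marks sites, 45 (0.260%) had less than 50 bp shared between the marks, and the median of the longest shared stretch was 601 bp.

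The libraries that did not form the classes separated them further. Pol II peaks of IAA replicates 1 and 2 lay at 70.6% and 81.9% of sites with both marks, 35.6% and 54.8% of Tyr1P-only sites, and 0.171% and 0.575% of Ser2P-only sites. In interiors alone the shares were 49.9% and 65.7% for both marks, 34.5% and 55.5% for Tyr1P only, and 0.109% and 0.344% for Ser2P only. The Pol II lists were shorter, at 17707 and 23059 peaks, and list length was not held equal here. Tyr1P Control peaks lay at 95.4% and 96.0% of both-marks sites, 81.8% and 78.8% of Tyr1P-only sites and 5.33% and 6.26% of Ser2P-only sites. Ser2P Control peaks lay at 86.5% and 61.1%, 19.9% and 4.06%, and 16.7% and 4.65% of these classes. Ser2P-only sites at gene ends had a Ser2P Control peak more often than interior ones, at 47.0% and 18.4% against 10.7% and 2.45%. The same was seen past ends, at 45.1% and 13.9%.

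**Figure D4:**
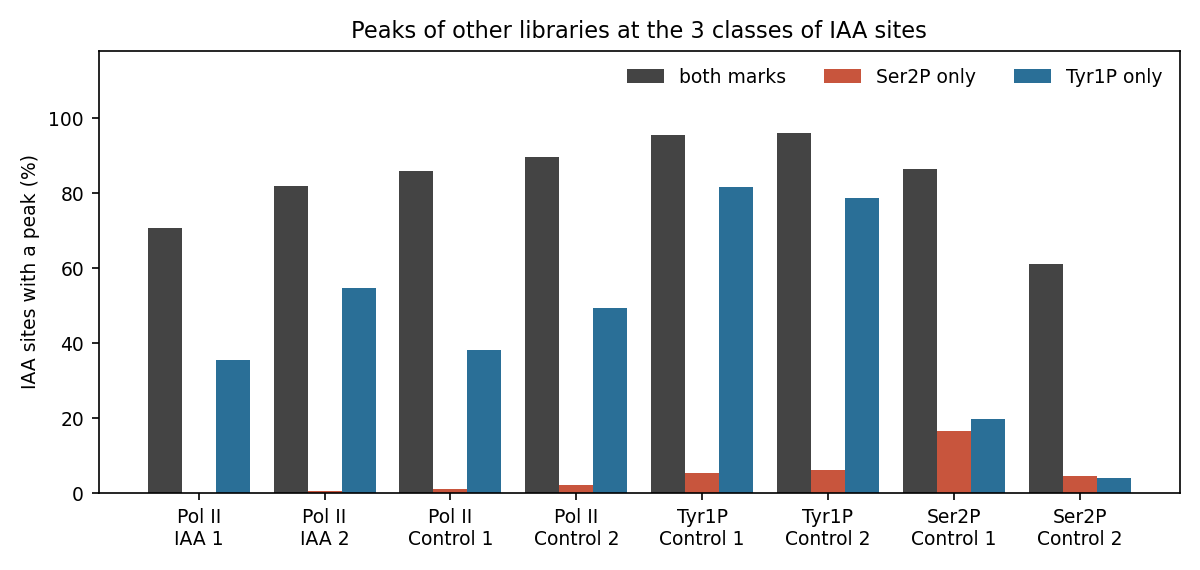
Percentage of sites of each IAA class (vertical axis) with a peak in each of 8 libraries that did not form the classes. Ser2P-only sites have a Pol II IAA peak in 0.171% and 0.575% of cases, against 35.6% and 54.8% for Tyr1P-only sites.

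By class in Control, 60.2% of sites with both marks after IAA overlapped a both-marks site, 11.2% a Tyr1P-only site and no both-marks or Ser2P-only one, and 2.08% no peak of either mark. Of the Tyr1P-only sites, 57.5% were Tyr1P-only in Control and 13.5% had no peak. Of the Ser2P-only sites, 80.1% had no peak of either mark in Control and 2.04% were Ser2P-only there. A Ser2P class in Control needs a peak in the shallow Ser2P Control replicate 2. Having no peak means no peak in any Control list of either mark. Ser2P Control replicate 1 had a peak at 16.7% of the Ser2P-only sites. Its estimated depth was 13.6 fragments per kb, against 9.34 and 10.5 in the Ser2P IAA libraries. The part of depth in these shares was not tested.

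Genes were called from the sites. Of 15812 protein-coding genes with a listed strand, 9865 (62.4%) had both marks at a start, and 207 (1.31%) had Tyr1P only there. Of 18727 genes of at least 2 kb, 7929 (42.3%) had a Ser2P-only site inside, 1951 (10.4%) a both-marks site and 1378 (7.36%) a Tyr1P-only site. A Ser2P-only site at the end or up to 5 kb past it was found at 4559 of 15812 genes (28.8%). With lists of equal length these counts were 9332 for both marks at a start, 537 for Tyr1P only at a start, 2303 for Ser2P only inside and 1685 for Ser2P only at or past the end. The calls differed by gene length. Both marks at the start were called in 51.3%, 67.4%, 73.3% and 59.3% of genes of 2 to 10, 10 to 50, 50 to 200, and 200 kb and over. Ser2P only inside was called in 11.7% of genes of 2 to 10 kb, 46.3% of 10 to 50 kb, 61.6% of 50 to 200 kb and 49.4% of 200 kb and over. Tyr1P only inside rose throughout, at 0.612%, 4.19%, 12.3% and 29.7%. Ser2P only inside went with both marks at the start, being called in 56.3% of 9641 genes with such a start and 18.7% of 5256 without. This held in each length class, at 14.7% and 7.91%, 58.4% and 22.3%, 74.3% and 27.8%, and 71.2% and 19.7%.

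The deposited fold of a peak is the authors' value within its own list and chose the genes that follow, so it is given as a description. At THOC3 (chromosome 5) it was 19.5 and 19.9 in the Ser2P lists and 22.6 and 22.9 in the Tyr1P lists, over peaks of 689, 523, 517 and 535 bp. At CYB5R4 (chromosome 6) it was 21 and 20.4 and then 20.2 and 21.3, and at SHQ1 (chromosome 3) 20.6 and 18.4 and then 20.5 and 20.6. Each of these 3 starts thus stood high in all 4 lists. The next genes were TTC8, a subunit of the BBSome of cilia, LMTK2, a membrane kinase, HYCC1, part of a phosphatidylinositol kinase complex, NET1, an exchange factor of RhoA, and KLHL28, a kelch-like protein.

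Ser2P-only sites inside genes were led by CNTNAP3, a contactin-associated protein (chr9:39067339-39067805), with a fold of 17 and 13.2. It lay near the far end of the gene, 220595 bp from the start. PIGF, an enzyme of GPI anchor synthesis, had 15.4 and 13.6. MGST1, a microsomal glutathione transferase, had 12.1 and 18.4, the widest gap between replicates of these 3. CYP7B1, an oxysterol hydroxylase, TSC22D2, IARS2, the mitochondrial isoleucine tRNA ligase, FAM3C, a secreted protein, and SP100, of nuclear bodies, followed. IARS2 had the widest of these peaks, at 928 and 930 bp, centred 52481 bp from the start of a gene of 53.9 kb. The genes with most Ser2P-only sites were long. AOPEP, an aminopeptidase, held 61 over 424 kb, RPTOR, the raptor subunit of an mTOR complex, 59 over 422 kb, and APBB2, an adaptor, 57 over 405 kb. ANKRD11, a chromatin regulator, held 55 over 223 kb, PCDH7, a protocadherin, 54 over 426 kb, and TCF7L2, a Wnt pathway transcription factor, 53 over 217 kb. Per 10 kb, ANKRD11 and TCF7L2 had 2.49 and 2.46 sites, and the other 4 genes 1.27 to 1.45.

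Past gene ends, the strongest Ser2P-only site lay beyond NKX2-4, a homeobox gene (chr20:21391319-21392104), with a fold of 15.9 and 15.2 and widths of 768 and 786 bp. SLC25A36, a mitochondrial nucleotide carrier, had 13.1 and 17.3, and AGA, a lysosomal hydrolase, 13.1 and 13.2. VAPA, a protein of endoplasmic reticulum contact sites, had 13.4 and 12.4, and BCAR3, a signalling adaptor, 13.2 and 12.5. ZNF326, SNX13, a sorting nexin, and SEC23A, of the COPII coat, completed the 8. The SEC23A site was the widest of them, at 990 and 892 bp.

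The strongest Tyr1P-only site lay at the end of NLRP3, the inflammasome sensor (chr1:247447920-247448345), with a fold of 22.9 and 23, ranking in the top 0.0275% and 0.0266% of the lists. NAT1, an arylamine acetyltransferase, had 21.3 and 20.6 in its interior. CDC23 had 19.6 and 18.5, ABCB1 19.3 and 18.1, and CDKAL1 16.9 and 18.5, all at a start. CHODL, a membrane lectin, had 19.6 and 17.1, PTPRN2, a secretory granule protein of the tyrosine phosphatase family, 19.8 and 16.5, and BCAS3 19 and 16.7, all inside the gene. Further genes with Tyr1P only at the start were ZNF280A, CELF4, an RNA-binding protein, INTU, a ciliogenesis effector, CHM, a Rab escort protein, and PLA2G4A, a cytosolic phospholipase. PTPRN2, CDKAL1 and BCAS3 span 1049, 698 and 715 kb, so long genes are among them. Of Tyr1P-only sites far from genes, the strongest lay 205 kb from MYO16, with a fold of 20.1 and 20.0.

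Genes for transcription and RNA processing mostly had both marks at the start and, apart from the Pol II subunits, Ser2P only inside. The lists were chosen with earlier results of these data known, and their counts are set beside the 62.4% and 42.3% of all genes tested. Both marks at the start were found at 11 of 11 tested Integrator subunits (such as INTS1 and INTS11), 25 of 25 pausing and elongation factors (AFF1, AFF4, CCNT1), 21 of 21 CTD kinases and phosphatases (ABL1, ABL2, CCNC) and 18 of 18 cleavage, polyadenylation and termination factors (CLP1, CPSF2, CPSF3). Ser2P only inside was found at 11 of 15, 21 of 29, 20 of 23 and 14 of 20 members of these lists. Their median gene lengths were 34.7, 28.5, 100.9 and 34 kb, against 24.2 kb for all protein-coding genes. Splicing factors had 34 of 34 and 21 of 39. Of the Pol II subunits, 7 of 8 had both marks at the start, and POLR2B, the second largest subunit, had Tyr1P only there. Ser2P only was inside 4 of 11 Pol II subunit genes, a smaller share than the 42.3% of all genes. The Pol II subunit genes had a median length of 7.84 kb, and Ser2P only was inside 11.7% of all genes of 2 to 10 kb. The part of gene length in these shares was not tested.

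Ribosomal protein, glycolytic and histone genes had both marks at most starts, against 62.4% of all genes. Ser2P only inside was found at or below 44.4% of the members tested, against 42.3% of all genes. The histone starts with both marks (65%) and the glycolytic genes with Ser2P only inside (44.4%) were near these shares. Cytosolic ribosomal proteins had both marks at 59 of 62 starts and Ser2P only inside 23 of 72 genes, with a median length of 4.91 kb. Ser2P only was inside 11.7% of all genes of 2 to 10 kb. The ribosomal protein genes without both marks at the start were RPL35A, RPL36 and RPS25. Glycolytic genes had 18 of 18 (ALDOA, ALDOC, ENO1) and 8 of 18. Replication-dependent histone genes, with a median length of 0.494 kb, had both marks at 39 of 60 starts and Ser2P only inside 0 of the 8 members long enough to have an interior. Their near-identical copies and close neighbours make single calls uncertain.

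Inducible genes were mixed. Of all genes tested, 62.4% had both marks at the start and 42.3% Ser2P only inside. Immediate early genes had both marks at 26 of 30 starts, with ATF3, JUNB, KLF2 and ZFP36L1 as the others, and Ser2P only inside 19 of 38. The immediate early genes had a median length of 5.27 kb, and Ser2P only was inside 11.7% of all genes of 2 to 10 kb. Heat shock and chaperone genes had 21 of 22 and 12 of 21, p53 targets 18 of 19 and 11 of 22, and cholesterol synthesis genes 14 of 14 and 11 of 20. Ser2P only at or past the end was found at 13 of 22, 11 of 19 and 9 of 14 of these 3 lists, against 28.8% of all genes. Interferon response genes had both marks at 8 of 15 starts (53.3%) and Ser2P only inside 3 of 21 genes (14.3%), both below the shares of all genes. Tyr1P only at the start was found at 3 of their 15, IFIT1, IFIT3 and OAS1, against 1.31% of all genes. Zinc finger genes of chromosome 19 had 123 of 210 (58.6%) and 51 of 240 (21.25%). The zinc finger starts were near the share of all genes. So were the immediate early genes and p53 targets with Ser2P only inside, at 50% each.

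**Figure D5:**
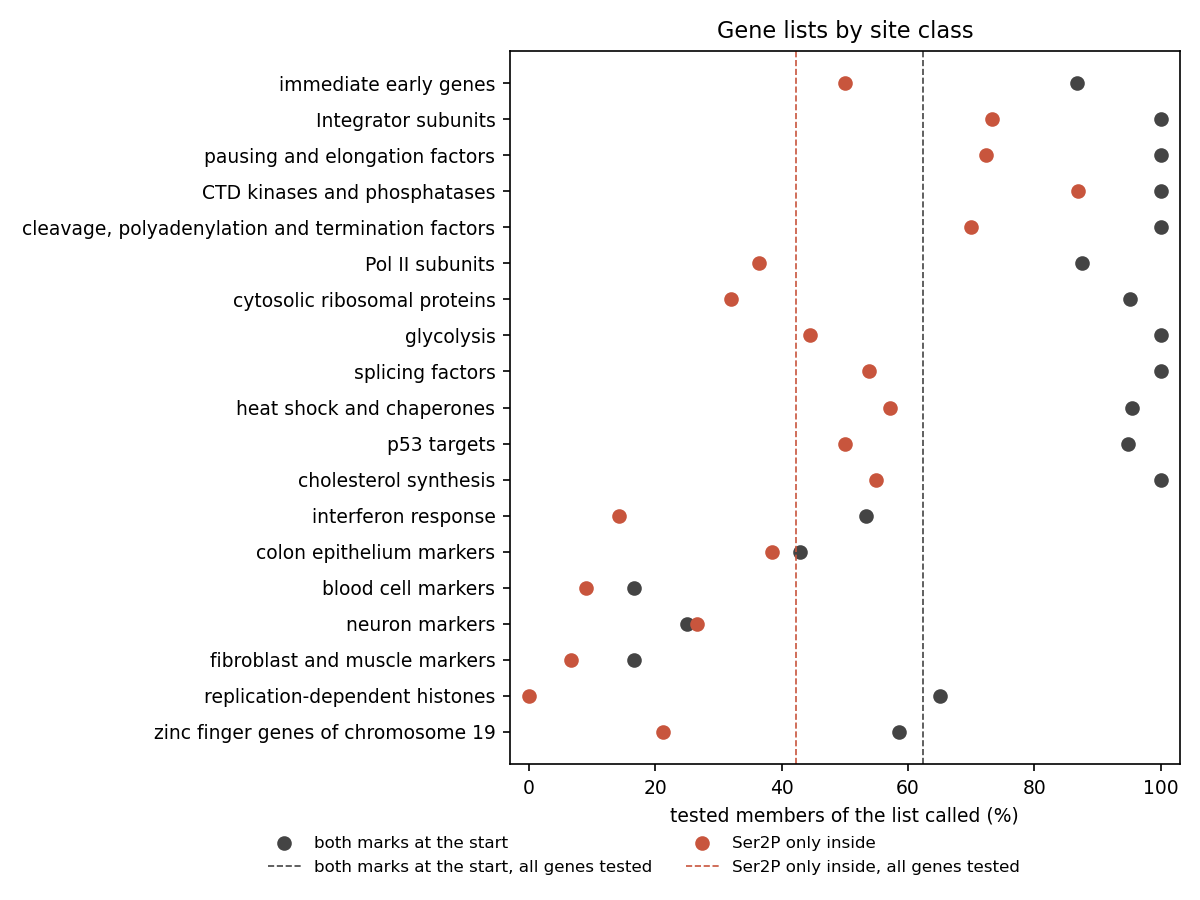
Percentage of the tested members of each gene list (horizontal axis) with both marks at the start or with Ser2P only inside, where dashed lines mark all protein-coding genes tested. Integrator, elongation, CTD enzyme and 3′ end factors sit at 100% for both marks, Pol II subunits at 87.5%, and blood cell and fibroblast markers at 16.7%.

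Of the 15 colon epithelium markers, chosen for the labelled cell type, 7 could be tested at a start. Both marks were at 3 of these 7 starts (CDX2, CLDN3, KRT8), against 62.4% of all genes. Ser2P only was inside 5 of 13 (CDH1, EPCAM, KRT19, KRT8, VIL1), against 42.3% of all genes. EPCAM and CDH1 have no listed strand and were not tested at a start, and had 2 and 1 sites with both marks in the gene or within 5 kb. CEACAM5, CEACAM6, CLDN4 and KRT20 had no both-marks site at a start. Blood cell markers had 1 of 6 and 1 of 11, fibroblast and muscle markers 1 of 6 and 1 of 15, and neuron markers 2 of 8 and 4 of 15. HBB, of red blood cells, had no peak of either mark in its gene or within 5 kb. Tyr1P only inside was found at 4 of 15 neuron markers (CAMK2A, GRIN2A, RBFOX3, STMN2), against 7.36% of all genes. The neuron markers had a median length of 48 kb, against 24.2 kb for all protein-coding genes. Tyr1P only was inside 12.3% of all genes of 50 to 200 kb and 29.7% of those of 200 kb and over. The part of gene length in this count was not tested.

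Genes chosen whatever their values ranged widely. FOS, an immediate early transcription factor, had both marks at the start and 2 Ser2P-only sites, and its Tyr1P peaks covered 14.0% and 14.0% of the gene and its 5 kb flanks against 25.8% and 28.8% for Ser2P. JUN had 1 site with both marks and 2 with Ser2P only, and EGR1 had 1 with both marks and none with Ser2P only. GAPDH, a glycolytic enzyme, and ACTB, a cytoskeletal actin, had 3 and 2 sites with both marks and none with 1 mark. POLR2A, the largest Pol II subunit, and MDM2, the ubiquitin ligase of p53, each had 1 site with both marks and 6 with Ser2P only. Ser2P peaks covered 11.7% and 10.7% of the POLR2A region against 5.53% and 4.83% for Tyr1P. CDKN1A, a cell cycle inhibitor, had 2 sites with both marks and 1 with Ser2P only. INTS11 had 1 site with both marks, at its start. HSPA8, a chaperone, had 1 site with both marks and none with 1 mark, and RPLP0, of the ribosomal stalk, 2 and none. EPCAM and CDH1, epithelial adhesion proteins, had 2 and 1 with both marks and 1 and 3 with Ser2P only. KRT8, an epithelial keratin, had 4, 4 and 2 of the 3 classes.

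Genes without a protein product differed by kind. Of 154 snRNA genes, 44 (28.6%) had a both-marks site within 200 bp, 8 Ser2P only and 9 Tyr1P only. Of the 21 snRNA genes listed by name, 18 had both marks within 200 bp, and RNU2-1 and RNU5D-1 had Tyr1P only there. In its gene or within 5 kb, RNU2-1 also had 1 Ser2P-only site. RNU1-1, a gene of the U1 splicing RNA, had 1 site with both marks, and H4C3, a histone gene, likewise. Near-identical copies make the snRNA assignments uncertain. Of 443 tRNA genes, which Pol III transcribes, 143 (32.3%) had both marks, 51 (11.5%) Tyr1P only and 16 (3.61%) Ser2P only. Of 15 nuclear long noncoding RNA genes 15 had a both-marks site, 5 of them Ser2P only as well, NEAT1 included, and MALAT1 had a Tyr1P-only site beside 2 with both marks. Of all 18177 long noncoding RNA genes, 19.9% had a both-marks site, 16.1% Ser2P only and 5.98% Tyr1P only. Among sites elsewhere, 14.1% of those with both marks, 2.42% with Ser2P only and 3.76% with Tyr1P only lay at the start of a long noncoding RNA gene. The median distance to a protein-coding gene was 24.1, 19.9 and 37.8 kb, longest for Tyr1P only.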

How the data were processed

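Narrow peak lists of ChIP-seq libraries on hg38 were used as the authors deposited them, 1 list per library. MACS2 2.2.7.1 is the peak caller among the tools that the submitters' processing notes name. Bowtie2 2.3.4.1 is the aligner among them, and Trim Galore 0.6.6 the read trimmer. Picard 2.25.7 and deepTools 3.5.1 are listed as well. No source used here gives their settings or says which control the caller had. Each deposited peak has a score, a fold enrichment (a ratio), −log10 p, −log10 q and a summit. Fold values ranked peaks within a list.

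Lists were limited to chromosomes 1 to 22 plus X, and peaks sharing 1 bp with an input peak removed (0.276% to 0.762% of the 4 IAA lists of the marks). The deposited lists hold no read totals. Depth was estimated by solving the deposited fold and −log10 p for stacked fragments and Poisson background, with a relative tolerance of 0.0002. This matched 100% of peaks in the 4 lists, and median summits held 26, 30, 36 and 39 fragments. Steps were tested on simulated data.

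The RefSeq gene table (GRCh38.p14) held 19974 protein-coding genes. The promoter table gave a strand for 15812 of them and 22132 starts. Sites were placed by centre and peaks by summit, in the order start, end, interior, flank of 5 kb, elsewhere. Libraries were compared by two-sided exact permutation tests that enumerated every arrangement (numpy 2.4.6). Intervals are exact binomial (scipy 1.17.1). Named genes were the 8 with the best mean rank by fold in each class, the 6 with most Ser2P-only sites, a fixed set of 21 genes (1 is not reported here), and list members in alphabetical order. The 8 with Tyr1P only at a start, the nearest gene to the strongest distant site, and members counted at 5 or fewer in a list were named after their values were seen. Members and lists were chosen with earlier results of these data known. Libraries were not paired by replicate number in the main tests. The correlation of replicate differences between marks was -0.00728 over 130213 sites. Only 35198 of these sites had any Tyr1P peak, so this value cannot show whether same-numbered libraries were paired. The 4 Pol II libraries without replicate numbers were not used. Alternatives are given in the closing section.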

Additional observations from a re-analysis of the deposited data

Results flagged for a closer look

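The difference in peak number between the marks had opposite signs in the 2 conditions. Ser2P minus Tyr1P was 62344 peaks after IAA and -11837 in Control, and every Ser2P library lay above both Tyr1P libraries after IAA and below both in Control. Results were flagged where the marks were fully separated in both conditions, in opposite directions. For any such result an exact permutation of the mark labels within each condition gives p = 0.0556, the smallest possible with 36 arrangements. This p thus follows from the flagging rule and adds no support. Ser2P Control replicate 2 is shallow, at 3.28 fragments per kb, and replicate 1, at 13.6, is the deepest of the 8 libraries of these marks. The part of depth in the difference was not tested.

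The share of peaks that met the other mark changed sign likewise, at -45.2 percentage points after IAA and 26.0 in Control. Its exact permutation p = 0.0556 was again fixed by the flagging rule. This share moves with the lengths of the lists compared, which changed in the same direction, and their part was not tested in Control.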

How the results depend on the processing

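One recomputed value turned its direction, and 28 others moved beyond the limit set for them. With lists of equal length the differences at starts, in interiors and in overlap kept their sign but shrank to -4.06, 8.74 and -3.07 percentage points. The width difference turned to 149.5 bp, from -113.5 bp, Ser2P-only sites fell to 8346, and genes with Ser2P only inside, Ser2P only at or past the end and Tyr1P only at the start became 2303, 1685 and 537. The shares of both marks at starts, Ser2P only in interiors and Tyr1P only elsewhere became 60.1%, 46.3% and 47.6% with equal lists. With an overlap of 50% of the shorter peak they were 54.5%, 60.05% and 49.5%. With −log10 q of at least 5 the first 2 were 59.2% and 56.3%, with a window of 500 bp 50.9% and 63.2%, and with unmerged replicate 1 peaks the second was 60.03%. Leaving out 1 library in turn gave 49.4% to 52.9%, 59.6% to 63.7% and 47.9% to 51.0% for these shares, 46954 to 76817 Ser2P-only sites and 6243 to 10441 Tyr1P-only sites. A class that needs 1 list of a mark in place of 2 is larger by construction; for the other moves the cause was not tested. The 6 differences between marks kept their sign under each library left out. With the replicate block the differences were the same by construction, at 62344 peaks, -22.5, 31.7 and -45.2 percentage points, -113.5 bp and 26.0 bp. The exact within-pair test gave p = 0.5, the smallest 2 pairs allow. The labels link same-numbered libraries only by that number. Depth was known only as an estimate, so absence of a peak is not absence of the mark.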
